A study of Homo sapiens with 12 samples.

Results

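Genes whose names end in -AS and a digit are long noncoding RNA (lncRNA) genes named for the gene they lie across from on the other DNA strand. The members described here were all genes of the count table whose symbol ends that way and whose reads summed to at least 240 over the 12 libraries, with ADAM7-AS1 and EPB41L4A-AS1 left out. That gave 313 of 58288 genes. The sum of counts was the only measured value in this rule, which was set with earlier results of these data known. The members just inside the threshold were CRTC3-AS1 with 240 counts, RUNX3-AS1 with 241 and PFN2-AS1 with 241, and RNF213-AS1 with 230, BASP1-AS1 with 232 and HDAC4-AS1 with 235 lay just outside it and are not members. The RNA came from HL-60/S4, a human promyelocytic leukaemia line, so that every library represents 1 cell line. Undifferentiated promyelocytes were given either 16 ng/ml TNF-α or water as vehicle for 2 h. Granulocytes, made from the same cells over 4 days in 1 µM ATRA (all-trans retinoic acid), were given the same TNF-α or water for 2 h, with ATRA still in their medium. Each of the 4 groups held 3 flasks at passage 8, all media contained added calcium chloride, and because promyelocytes and granulocytes were treated in separate experiments, cell type and experiment cannot be told apart where levels are set side by side.

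An antisense transcript is copied from the strand opposite to a neighbouring gene, here called the sense gene, and the pair may share exons, share introns only, or start back to back from 1 promoter region. Some antisense lncRNAs are known to act on the chromatin or on the messenger RNA of the gene across from them, some act elsewhere in the cell, and for most no function has been established. TNF-α is an inflammatory cytokine that signals through the transcription factors NF-κB and AP-1 and changes the transcription of many genes within hours.

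The libraries held between 22829189 and 31895061 counts assigned to genes. Members took 0.203 to 0.219% of these in promyelocytes, 0.333 to 0.336% in granulocytes given vehicle and 0.261 to 0.273% in granulocytes given TNF-α. Summed markers followed the labels. In promyelocytes given vehicle 8 granulocytic markers summed to 158 to 166 CPM (counts scaled to a common library size), and in granulocytes given vehicle to 5023 to 5330 CPM. In the same groups, 8 promyelocyte and myeloid markers summed to 8402 to 9074 and 2708.5 to 2954 CPM. MPO made up most of the latter sums, at 6188 to 6637 and 1934 to 2130 CPM. CD33 (125 to 127 against 166 to 173 CPM) and SPI1 (112 to 124 against 204 to 232 CPM) were higher in granulocytes. With TNF-α the granulocytic markers summed to 267 to 284 CPM in promyelocytes and 5726 to 6056 CPM in granulocytes, and the promyelocyte and myeloid markers to 6929 to 7850.5 and 2739.5 to 2982 CPM. Over all libraries, 4 B cell markers summed to 5.38 to 12 CPM, with MS4A1 at 0 throughout, 4 erythroid markers to at most 0.256 CPM and 4 epithelial or fibroblast markers to at most 0.762 CPM, and the part of these markers in the results was not tested. Summed over 4 known TNF-α target genes, the level went from 76.8 to 79.7 CPM with vehicle to 865 to 893 CPM with TNF-α in promyelocytes, and from 53.3 to 57.3 CPM to 1640 to 1786 CPM in granulocytes. CPM are given here per library after scaling for composition within each cell type.

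A sense gene of the same base name was in the table for 310 members, and TRG-AS1, TRD-AS1 and HOXA-AS2 had none. Exons of both genes overlapped in 231 pairs, the spans overlapped without shared exon bases in 54, and 20 pairs were divergent, with the members starting back to back. LYRM4-AS1 and PRDX6-AS1 lay apart from their sense genes, and FAM131B-AS2, ITPR2-AS1 and MYCBP2-AS2 lay on the same strand as theirs and were left out of the pairs. Start sites lay within 1 kb of each other in 107 pairs. The median summed exon length was 2655 bases for members and 5628.5 bases for sense genes, and the median level per length was 4.01 against 20.2 TPM (counts per exon length, scaled to a common sum within each library, as the mean of the 12 libraries). Levels were low for most members, with a median sum of 921 counts against 12338.5 for the sense genes. Even so, 88 members exceeded their sense gene in TPM and OIP5-AS1 held the most counts, 98289. Counting was strand-specific, and where exons of a member overlapped an opposite-strand gene, the member held as little as 0.146 counts per 100 counts of that gene (TUBA1B-AS1, opposite the tubulin gene TUBA1B). In GENCODE v44, 310 members are lncRNA genes and EMC3-AS1, SVIL-AS1 and SRP54-AS1 are transcribed pseudogenes.

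RefSeq promoter windows of 300 bases, 250 before and 50 after an annotated start (GRCh38.p14), were matched to 243 members with 293 windows. The 6 members below are shown as examples of those named in the results. Capitals mark matches on either strand to the NF-kB consensus, named here without its letters, or to the AP-1 motif TGANTCA. MMP2-AS1 had the largest rise of the members tested in promyelocytes, ARHGEF2-AS2 and NUP153-AS1 rose in both cell types, SLC30A4-AS1 had the largest rise of the members tested in granulocytes, TRG-AS1 rose in granulocytes, and FRY-AS1 fell while FRY rose in promyelocytes.
MMP2-AS1, chr16:55462248-55462547, minus strand: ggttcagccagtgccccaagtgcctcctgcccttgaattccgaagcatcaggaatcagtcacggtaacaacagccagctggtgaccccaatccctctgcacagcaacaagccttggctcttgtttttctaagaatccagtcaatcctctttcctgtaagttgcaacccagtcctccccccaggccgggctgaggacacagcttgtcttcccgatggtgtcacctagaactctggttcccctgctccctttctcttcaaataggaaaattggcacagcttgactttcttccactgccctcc
ARHGEF2-AS2, chr1:155979013-155979312, plus strand: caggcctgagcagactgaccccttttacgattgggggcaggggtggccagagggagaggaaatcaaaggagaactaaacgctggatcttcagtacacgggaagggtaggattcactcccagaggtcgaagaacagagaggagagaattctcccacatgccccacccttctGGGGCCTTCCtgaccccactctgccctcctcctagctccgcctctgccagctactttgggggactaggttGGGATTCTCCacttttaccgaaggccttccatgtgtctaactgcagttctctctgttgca
NUP153-AS1, chr6:17705880-17706179, plus strand: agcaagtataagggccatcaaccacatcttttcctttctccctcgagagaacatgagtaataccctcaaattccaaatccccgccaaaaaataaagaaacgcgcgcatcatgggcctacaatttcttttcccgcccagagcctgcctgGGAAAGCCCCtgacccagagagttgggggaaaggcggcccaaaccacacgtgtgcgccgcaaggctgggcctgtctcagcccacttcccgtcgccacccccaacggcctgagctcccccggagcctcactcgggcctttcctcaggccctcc
SLC30A4-AS1, first start, chr15:45448104-45448403, plus strand: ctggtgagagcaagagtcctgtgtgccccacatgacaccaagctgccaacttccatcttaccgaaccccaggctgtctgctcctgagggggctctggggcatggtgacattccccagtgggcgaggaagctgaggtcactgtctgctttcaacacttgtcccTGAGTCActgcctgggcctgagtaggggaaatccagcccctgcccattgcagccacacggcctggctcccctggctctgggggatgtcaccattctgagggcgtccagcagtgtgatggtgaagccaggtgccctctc
SLC30A4-AS1, other start, chr15:45448510-45448809, plus strand: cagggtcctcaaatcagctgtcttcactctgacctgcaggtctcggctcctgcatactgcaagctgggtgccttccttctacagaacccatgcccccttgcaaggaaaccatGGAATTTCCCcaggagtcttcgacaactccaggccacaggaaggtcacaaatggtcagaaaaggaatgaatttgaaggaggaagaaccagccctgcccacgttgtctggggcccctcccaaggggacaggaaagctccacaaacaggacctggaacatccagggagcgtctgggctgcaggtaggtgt
TRG-AS1, chr7:38341171-38341470, plus strand: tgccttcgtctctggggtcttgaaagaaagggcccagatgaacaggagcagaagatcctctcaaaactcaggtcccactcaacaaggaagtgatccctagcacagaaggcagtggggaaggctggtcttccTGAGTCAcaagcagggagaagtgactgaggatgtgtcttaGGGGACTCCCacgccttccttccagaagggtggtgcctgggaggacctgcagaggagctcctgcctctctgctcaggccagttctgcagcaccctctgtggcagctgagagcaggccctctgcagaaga
FRY-AS1, chr13:32031590-32031889, minus strand: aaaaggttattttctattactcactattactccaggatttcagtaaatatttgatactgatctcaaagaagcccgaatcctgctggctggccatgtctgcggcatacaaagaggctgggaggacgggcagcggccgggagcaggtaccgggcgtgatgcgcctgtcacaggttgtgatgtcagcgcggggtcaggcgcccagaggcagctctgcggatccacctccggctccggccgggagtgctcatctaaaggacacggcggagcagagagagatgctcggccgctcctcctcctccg

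The ARHGEF2-AS2 window shown held 2 matches to the NF-kB consensus, those of NUP153-AS1, TRG-AS1 and the other start of SLC30A4-AS1 held 1 each, and the windows of MMP2-AS1 and FRY-AS1 held no match to either motif. Among other members named for a rise, the windows of TTN-AS1, PRKAR1B-AS1, FOXP4-AS1, ZNF687-AS1 and SLC9A3-AS1, not shown, had 0 matches to either motif. The window of KDM4A-AS1, not shown either, had 1 match to the NF-kB consensus. ARHGEF2-AS2 and NUP153-AS1 each have another RefSeq window, not shown, with 0 matches to either motif. For ARHGEF2-AS2 that other window belongs to a start 160 bases from the gene start in the reference annotation, nearer than the 464 bases of the start shown. An AP-1 match lay in the first SLC30A4-AS1 window and in the TRG-AS1 window, where it did not overlap the NF-kB match. Among all 35116 promoter windows of the same length, 11.3% held the NF-kB consensus and 7.71% the AP-1 motif. Of the members' windows, 13% held the NF-kB consensus, among them 10 of the 46 windows of members that rose in granulocytes (21.7%) and 7 of the 95 windows of members that fell (7.37%). Members that rose in promyelocytes had the consensus in 5 of 15 windows (33.3%) and those that fell there in 2 of 12 (16.7%). The AP-1 motif was in 4.1% of the members' windows. Some windows belong to the same gene, and a match describes letters only, not binding.

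In promyelocytes, few antisense RNAs moved in 2 h of TNF-α and about as many fell as rose. Of 298 members that passed the expression filter, 14 rose and 15 fell at an adjusted p under 0.05 (edgeR quasi-likelihood test), or 9.73%, where 14.8% of the 16250 genes tested were called, 8.15% up and 6.65% down. The fall count rested on single libraries, with 8 members falling without TNF-α flask 2. By size, 7 rose and 3 fell at least 2-fold. The median log2 fold change over the tested members was -0.05, beside -0.01 over all genes and -0.03 over other lncRNA genes. Of their sense genes, 37 rose and 15 fell among 262 tested (19.8%), and the fall count was 25 with trends in GC content and length removed, 32 with all 12 libraries in 1 fit and 8 without TNF-α flask 2. CPM in the TNF-α and vehicle flasks did not overlap in 29 members that were higher and 44 that were lower, where all genes gave 16.0% and 15.1%. Of the tested members, 268 exceeded the filter's cutoff of 0.354 CPM in all 6 promyelocyte libraries, 18 in all vehicle libraries only and 7 in all TNF-α libraries only. The 15 members not tested here had too few counts, among them SLC30A4-AS1, SPATA8-AS1, SLCO4A1-AS2, DHDDS-AS1 and HOXA-AS2.

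In granulocytes, falls outnumbered rises. Of 312 tested members, all but USP2-AS1, 47 rose and 98 fell, or 46.5%, against 49.2% of the 16944 genes tested, of which 24.4% rose and 24.8% fell. The median log2 fold change was -0.18 over the members, -0.0047 over all genes, -0.08 over other lncRNA genes, -0.01 over protein coding genes and 0.04 over the sense genes. Members that fell did so by a median of 0.68 on the log2 scale and those that rose had a median log2 fold change of 0.74, and 27 fell and 16 rose at least 2-fold. Other lncRNA genes had 299 rises and 403 falls among 2119 tested, and the sense genes 86 rises and 68 falls among 260. Split by level into equal groups, the median log2 fold change of members was -0.21 in the lowest, -0.14 in the middle and -0.16 in the highest, beside -0.10, -0.06 and -0.04 for other lncRNA genes in the same ranges of level. Between the flasks of both treatments CPM did not overlap in 54 members that were higher and 121 that were lower, with 27.3% and 27.9% over all genes. These counts are of members that passed a filter on low counts, 297 of which exceeded its cutoff of 0.376 CPM in all 6 granulocyte libraries, 10 in all vehicle libraries only and 3 in all TNF-α libraries only.

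**Figure D1:**
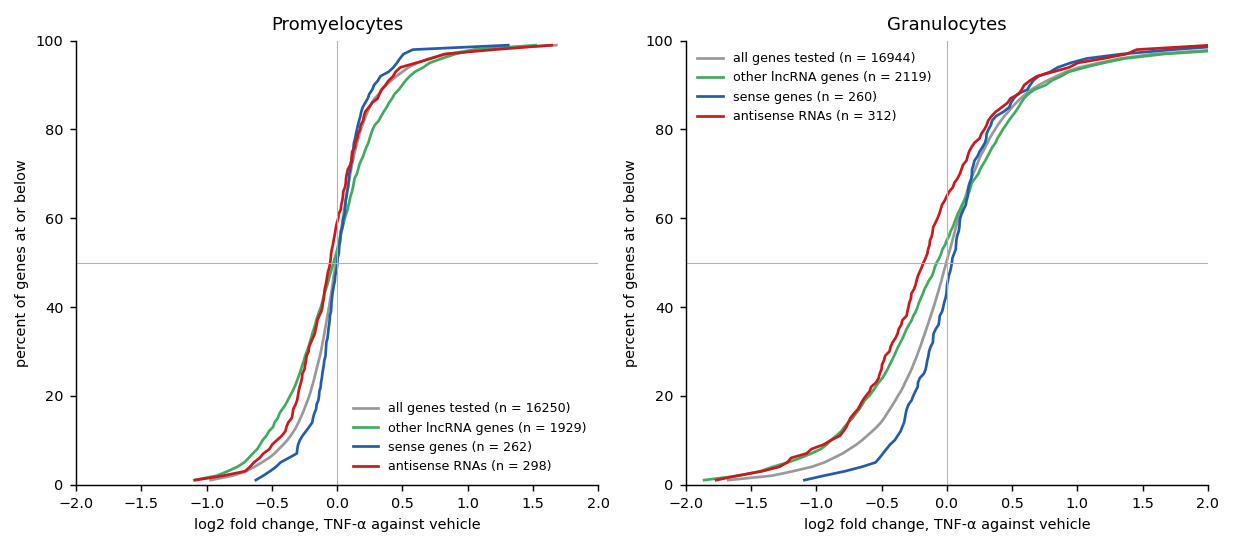
Cumulative share of genes (y axis, percent) at or below each log2 fold change of TNF-α against vehicle (x axis), for antisense RNAs, their sense genes, other lncRNA genes and all genes tested, in promyelocytes (left) and granulocytes (right). The antisense curve crosses 50% at -0.05 in promyelocytes and at -0.18 in granulocytes, where the other lncRNA genes cross at -0.08 and the sense genes at 0.04.

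The largest response common to both cell types was that of MMP2-AS1, which overlaps the span, but no exon, of MMP2, the gene of the matrix metalloproteinase gelatinase A (hg38 chr16:55426797-55462297, minus strand). In promyelocytes it had 0.447, 0.11 and 0.208 CPM with vehicle and 11.7, 12.8 and 12 CPM with TNF-α. In granulocytes it had 1.08, 0.901 and 0.438 CPM with vehicle and 22.1, 25.2 and 25.2 CPM with TNF-α. Every TNF-α flask lay far above every vehicle flask, with a log2 fold change of 5.51 ± 0.23 (SE, n = 3 against 3, edgeR adjusted p = 4.4e-13) in promyelocytes and 4.92 ± 0.15 (adjusted p = 5.2e-26) in granulocytes. The vehicle levels rest on 23 counts in all in promyelocytes and 68 in granulocytes, so that the counts gave ratios of 46.2 (95% interval 30.6 to 73.3) and 30.5 (23.9 to 39.4), intervals that, like all such intervals and floors here, cover counting error only. The difference between the responses was not called (-0.55 ± 0.40, adjusted p = 0.35). MMP2 itself had at most 0.581 CPM in any library and was not tested. An unnamed gene on the same strand, ENSG00000274508, lies 667 bases downstream of MMP2-AS1 and rose by a log2 fold change of 6.18 in promyelocytes and 5.30 in granulocytes.

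NUP153-AS1 (hg38 chr6:17706257-17707344, plus strand) starts 577 bases from the start of NUP153, which encodes a component of the nuclear pore basket, and overlaps its exons. Its promyelocyte levels were 3.36, 2.31 and 2.74 CPM with vehicle and 5.74, 7.04 and 6.61 CPM with TNF-α. Its granulocyte levels were 0.462, 0.801 and 0.641 CPM with vehicle and 5.59, 4.54 and 3.43 CPM with TNF-α. The groups did not overlap in either cell type, and the log2 fold changes of 1.20 ± 0.16 (adjusted p = 2.0e-05) and 2.81 ± 0.25 (adjusted p = 3.9e-12) differed by 1.65 ± 0.31 (adjusted p = 0.00023, edgeR test of the difference). NUP153 rose too, by log2 fold changes of 0.53 and 0.95.

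ITGB2-AS1 overlaps exons of ITGB2, the gene of the β2 integrin chain that leukocytes use to adhere. Its levels were 0.671, 0.806 and 0.971 CPM with vehicle and 2.78, 2.96 and 1.94 CPM with TNF-α in promyelocytes, and 11.3, 10.6 and 12.1 CPM against 28.5, 29.2 and 30.4 CPM in granulocytes. No vehicle flask reached any TNF-α flask of its cell type. The log2 fold changes were 1.64 ± 0.26 (adjusted p = 0.00012) and 1.37 ± 0.08 (adjusted p = 1.5e-17), while ITGB2 had 0.02 (adjusted p = 0.84) in promyelocytes and rose by 0.38 in granulocytes.

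PRKAR1B-AS1 lies within PRKAR1B, which encodes a regulatory subunit of protein kinase A, without touching its exons. It had 2.75, 2.56 and 2.25 CPM with vehicle and 8.71, 8.37 and 8.13 CPM with TNF-α in promyelocytes, and 3.46, 2.94 and 2.53 CPM against 6.84, 5.86 and 6.36 CPM in granulocytes. The TNF-α flasks were the higher ones throughout. The log2 fold change was 1.73 ± 0.14 (adjusted p = 1.6e-08) in promyelocytes and 1.10 ± 0.15 (adjusted p = 1.5e-07) in granulocytes, a difference of -0.60 ± 0.20 (adjusted p = 0.034). That difference lost its call without any 1 of 8 of the 12 libraries (adjusted p up to 0.11) and kept it only without promyelocyte vehicle flask 1, promyelocyte TNF-α flask 3, granulocyte vehicle flask 3 or granulocyte TNF-α flask 1. PRKAR1B rose by 0.30 and 0.44, the former with an adjusted p of 0.053 with all 12 libraries in 1 fit and the latter with an adjusted p of 0.14 without TNF-α flask 1 and 0.066 without vehicle flask 1, and of 0.10 with trends in GC content and length removed. ARHGEF2-AS2, which has a RefSeq start inside a promoter window of ARHGEF2, a microtubule-bound activator of RhoA, had 0.671, 0.916 and 1.14 CPM with vehicle and 2.17, 2.20 and 2.19 CPM with TNF-α in promyelocytes. In granulocytes ARHGEF2-AS2 had 4.23, 4.34 and 3.47 CPM with vehicle and 8.27, 8.36 and 6.86 CPM with TNF-α. Its log2 fold changes were 1.27 ± 0.25 (adjusted p = 0.0014) and 0.97 ± 0.13 (adjusted p = 1.5e-07), again without overlap. ARHGEF2 had -0.10 (adjusted p = 0.28) and rose by 0.34.

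**Figure D2:**
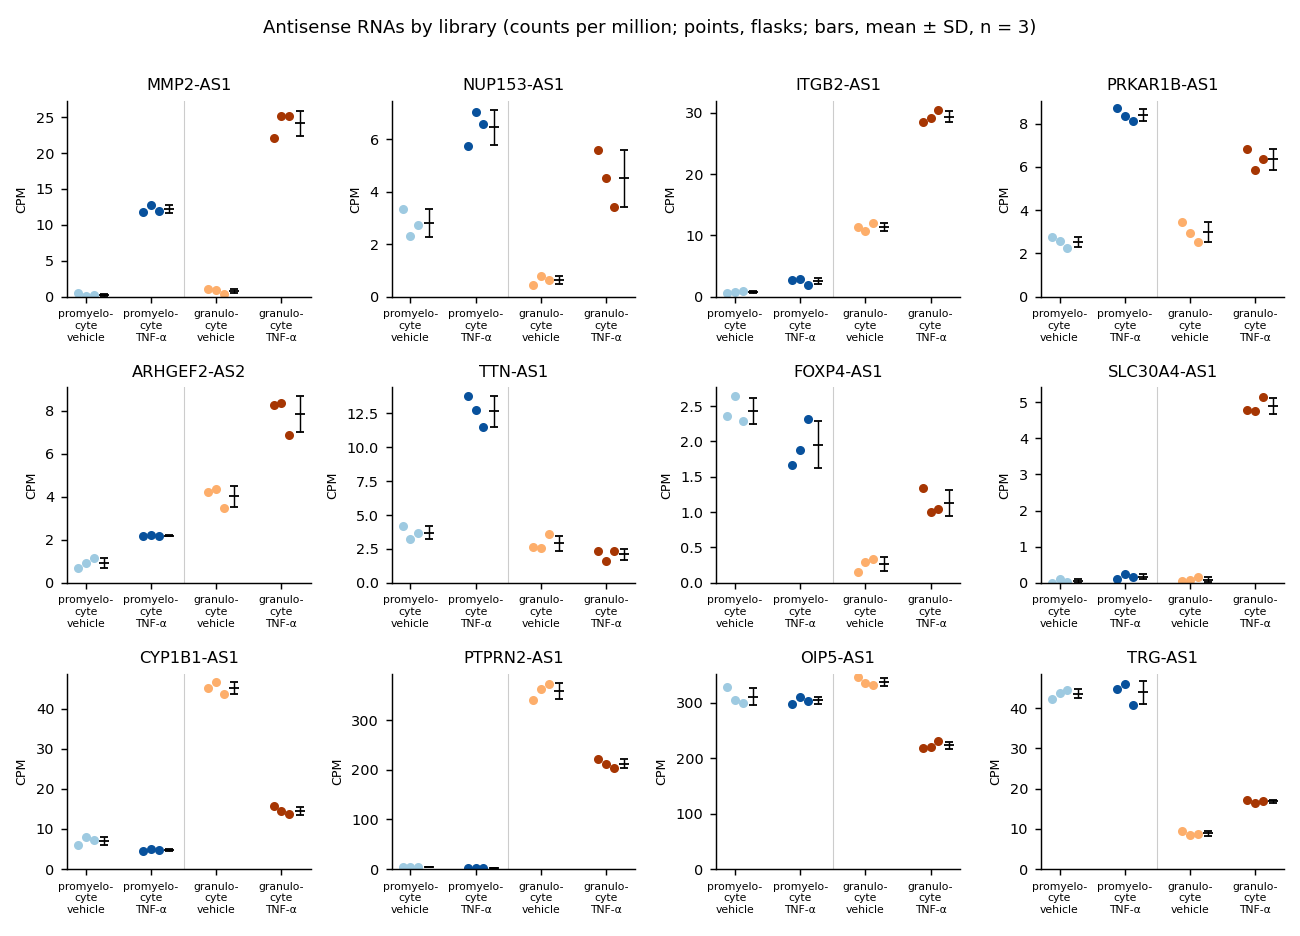
Levels in CPM (y axis of each panel, from 0) of 12 antisense RNAs in every flask of the 4 groups, with the mean and SD (n = 3) beside the points. MMP2-AS1, NUP153-AS1, ITGB2-AS1, PRKAR1B-AS1 and ARHGEF2-AS2 are higher with TNF-α in both cell types, TTN-AS1 in promyelocytes, and FOXP4-AS1, SLC30A4-AS1 and TRG-AS1 in granulocytes, while CYP1B1-AS1, PTPRN2-AS1 and OIP5-AS1 are lower with TNF-α in granulocytes.

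Among the other large rises of promyelocytes was TTN-AS1, which runs along TTN, the gene of the muscle protein titin. It had 4.22, 3.22 and 3.68 CPM with vehicle and 13.8, 12.7 and 11.5 CPM with TNF-α, a log2 fold change of 1.76 ± 0.13 (adjusted p = 3.3e-09) with all TNF-α flasks above all vehicle flasks. TTN, at 0.555 to 0.916 CPM with vehicle, rose with it by 2.12 ± 0.26 (adjusted p = 4.2e-06), and the same-strand gene PLEKHA3, which ends 4721 bases upstream, by 0.56. The unnamed genes ENSG00000270277 and ENSG00000279598, which overlap TTN-AS1 on its own strand, rose by 2.47 and 1.61. TTN-AS1 shares at most 53 exon bases with any same-strand gene, and how reads of shared bases were assigned is not given. Granulocyte levels of TTN-AS1 were 2.62, 2.54 and 3.57 CPM with vehicle and 2.33, 1.64 and 2.35 CPM with TNF-α, a log2 fold change of -0.48 ± 0.21 (adjusted p = 0.056). PIK3CD-AS1, opposite the gene of a leukocyte phosphoinositide 3-kinase subunit, was near the detection limit, with 0.32, 0.147 and 0.173 CPM against 0.532, 0.758 and 0.476 CPM. Its vehicle flasks all lay below the filter's cutoff of 0.354 CPM, so it was tested through its TNF-α flasks. Its log2 fold change was 1.42 ± 0.46 (adjusted p = 0.043), and the call was lost without any 1 of 5 of the 6 libraries, all but vehicle flask 1 (adjusted p up to 0.19), and without the filter (adjusted p = 0.057).

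The largest fall in promyelocytes that passed the test was that of FRY-AS1, which starts beside FRY, a scaffold of the NDR kinases, and overlaps its exons. Its levels were 0.671, 0.696 and 0.729 CPM with vehicle and 0.456, 0.108 and 0.191 CPM with TNF-α, close to the floor of 3 counts, 0.0953 to 0.114 CPM in these libraries. In granulocytes it had 1.66, 1.94 and 1.28 CPM with vehicle and 0.581, 0.357 and 0.632 CPM with TNF-α. The flasks did not overlap, and it fell by 1.48 ± 0.46 on the log2 scale (adjusted p = 0.037) in promyelocytes and by 1.65 ± 0.33 (adjusted p = 6.8e-05) in granulocytes. The promyelocyte call rested on 61 against 21 counts and was lost without any 1 of 5 of the 6 libraries, all but TNF-α flask 1 (adjusted p up to 0.17). Promyelocyte TNF-α flasks 2 and 3 lay below the filter's cutoff of 0.354 CPM, so FRY-AS1 was tested there through its vehicle flasks. FRY rose by 0.44 ± 0.07 in promyelocytes and fell by 0.27 ± 0.05 in granulocytes.

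IRF1-AS1 and PTPRN2-AS1 were the better measured falls. IRF1-AS1, across from the interferon regulatory factor gene IRF1, had 3.26, 3.26 and 3.47 CPM with vehicle and 1.90, 1.98 and 1.52 CPM with TNF-α in promyelocytes, and 17.6, 17.1 and 16.0 CPM against 12.3, 12.9 and 12.4 CPM in granulocytes. It fell by 0.89 ± 0.19 (adjusted p = 0.0028) and by 0.43 ± 0.08 (adjusted p = 5.9e-05) on the log2 scale with no overlap of flasks, while IRF1 had log2 fold changes of 0.13 (adjusted p = 0.34) and 0.00 (adjusted p = 0.99). PTPRN2-AS1, inside PTPRN2, a receptor-type phosphatase gene of secretory granules, had 3.74, 4.87 and 4.65 CPM with vehicle and 2.70, 2.17 and 2.38 CPM with TNF-α in promyelocytes. Its granulocyte levels were of another order, 340, 362 and 372 CPM with vehicle and 221, 211 and 203 CPM with TNF-α. It fell by 0.87 ± 0.18 (adjusted p = 0.0016) and by 0.76 ± 0.05 (adjusted p = 1.5e-15) on the log2 scale, and no flasks overlapped. PTPRN2 stayed at 0.520 to 6.84 CPM over all libraries and had log2 fold changes of -0.02 and 0.21 (adjusted p = 0.99 and 0.16).

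ACTA2-AS1, across from the smooth muscle actin gene, fell from 6.26, 5.24 and 5.52 to 4.11, 3.64 and 3.24 CPM without overlap, by 0.64 ± 0.15 on the log2 scale (adjusted p = 0.0062). STAMBPL1, a deubiquitinase gene that runs over it on the same strand, fell by 0.40 as well, and ACTA2 had -0.06 (adjusted p = 0.89). In granulocytes ACTA2-AS1 fell by 0.53 ± 0.20 (adjusted p = 0.030), a call lost without TNF-α flask 2, vehicle flask 2 or vehicle flask 3 (adjusted p up to 0.11) and in DESeq2 (adjusted p = 0.11). LIPT2-AS1, across from the lipoyltransferase gene LIPT2, had 0.831, 1.69 and 1.63 CPM with vehicle and 0.684, 0.722 and 0.508 CPM with TNF-α (log2 fold change -1.11 ± 0.34, adjusted p = 0.031). It shares 123 exon bases on its own strand with POLD3, a DNA polymerase subunit gene with 22258 counts in all against 482 for LIPT2-AS1, and how reads of shared bases were assigned is not given in the sources used here. POLD3 had log2 fold changes of 0.10 in promyelocytes and 0.01 in granulocytes (adjusted p = 0.29 and 0.90). PRRT3-AS1, across from PRRT3, had 1.31, 0.989 and 1.63 CPM against 0.456, 0.577 and 0.794 CPM (-1.09 ± 0.33, adjusted p = 0.029). Both calls were lost without any 1 of 4 libraries, for LIPT2-AS1 both flasks numbered 2 and both numbered 3 (adjusted p up to 0.15) and for PRRT3-AS1 TNF-α flasks 1 and 2 and vehicle flasks 1 and 3 (adjusted p up to 0.13), and both were lost in DESeq2 (adjusted p = 0.055 and 0.059). LIPT2-AS1 fell by 1.27 ± 0.25 in granulocytes (adjusted p = 4.2e-05), whereas PRRT3-AS1 had -0.18 there (adjusted p = 0.60).

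In granulocytes, SLC30A4-AS1 had the largest fold. Named for the zinc transporter gene SLC30A4, which is listed at 0 in all libraries, it had 0.0385, 0.0667 and 0.169 CPM with vehicle and 4.78, 4.75 and 5.14 CPM with TNF-α. The vehicle flasks held 8 counts in all and the TNF-α flasks 354, a ratio of 52.2 (95% interval 26.2 to 122; edgeR adjusted p = 4.8e-17). It shares 213 exon bases on its own strand with C15orf48, a small mitochondrial protein gene known to respond to inflammation, which rose by a log2 fold change of 4.03, and the overlapping HMGN2P46 rose by 2.86. Reads of genes that share exon bases on 1 strand cannot be split with certainty. In promyelocytes SLC30A4-AS1 had at most 0.253 CPM and was not tested. In granulocytes its vehicle flasks all lay below the filter's cutoff of 0.376 CPM, so it was tested through its TNF-α flasks.

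FOXP4-AS1, whose span overlaps the gene of the forkhead factor FOXP4, had 0.154, 0.300 and 0.337 CPM with vehicle and 1.34, 1.00 and 1.04 CPM with TNF-α in granulocytes, which did not overlap. It rose by a log2 fold change of 2.05 ± 0.40 (adjusted p = 4.3e-05), and FOXP4 by 1.09 ± 0.06. All granulocyte vehicle flasks of FOXP4-AS1 lay below the filter's cutoff of 0.376 CPM, so it was tested through its TNF-α flasks. In promyelocytes it had 2.36, 2.64 and 2.29 CPM against 1.67, 1.88 and 2.32 CPM, a log2 fold change of -0.30 ± 0.21 (adjusted p = 0.38), and the responses differed by 2.39 ± 0.41 (adjusted p = 7.8e-05).

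ZNF687-AS1 and KDM4A-AS1 rose in granulocytes against a fall of their sense genes. ZNF687-AS1 had 1.66, 0.934 and 1.48 CPM with vehicle and 4.25, 5.07 and 5.24 CPM with TNF-α, a rise of 1.85 ± 0.20 (adjusted p = 7.8e-10). The zinc finger gene ZNF687 had a log2 fold change of -0.16 ± 0.06 (adjusted p = 0.028), a call lost without TNF-α flask 2, vehicle flask 2 or vehicle flask 3 (adjusted p up to 0.26), in DESeq2 (adjusted p = 0.099) and with all 12 libraries in 1 fit (adjusted p = 0.082). KDM4A-AS1, across from the histone demethylase gene KDM4A, had 0.577, 0.701 and 0.776 CPM against 1.79, 2.43 and 2.26 CPM. It rose by 1.65 ± 0.28 (adjusted p = 5.2e-06), and in promyelocytes, from 3.48, 3.96 and 4.41 to 5.40, 5.85 and 6.45 CPM, by 0.58 ± 0.15 (adjusted p = 0.0097). KDM4A fell by 0.33 ± 0.05 in granulocytes and had 0.07 (adjusted p = 0.51) in promyelocytes.

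Granulocyte falls were led by TRD-AS1, which lies in the T cell receptor δ locus. It had 1.00, 1.40 and 0.944 CPM with vehicle and 0.0894, 0.286 and 0.181 CPM with TNF-α. It fell by 2.51 ± 0.44 on the log2 scale (adjusted p = 7.9e-06), from 96 to 14 counts in all. Its TNF-α flasks all lay below the filter's cutoff of 0.376 CPM, so it was tested through its vehicle flasks. Promyelocytes had 3.83, 4.21 and 5.52 CPM against 3.57, 3.39 and 3.68 CPM, and the log2 fold change of -0.35 (adjusted p = 0.19) differed from that in granulocytes by -2.13 ± 0.43 (adjusted p = 0.00046). Of 4 T cell markers, CD8A was at 0 in all libraries, and the markers summed to 1.49 to 2.08 CPM with vehicle and 1.25 to 1.78 CPM with TNF-α in promyelocytes and to 3.43 to 4.08 CPM and 2.39 to 3.39 CPM in granulocytes. Their part in this result was not tested.

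SLCO4A1-AS2 and SPATA8-AS1 were granulocyte transcripts, at or below the floor of 3 counts (0.0953 to 0.114 CPM) in promyelocytes. SLCO4A1-AS2, in the locus of an organic anion transporter, had 5.08, 4.57 and 5.03 CPM with vehicle and 1.30, 1.29 and 1.08 CPM with TNF-α, and fell by 1.99 ± 0.19 (adjusted p = 3.7e-11), beside a fall of 0.44 in SLCO4A1. SPATA8-AS1, divergent from a testis-expressed gene at 0 to 0.0347 CPM, had 3.31, 2.54 and 2.97 CPM against 0.939, 0.679 and 0.722 CPM and fell by 1.91 ± 0.25 (adjusted p = 4.6e-08). In both, the vehicle flasks were all higher than the TNF-α flasks.

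TAPT1-AS1, whose span overlaps that of the transmembrane protein gene TAPT1, had 5.31, 5.61 and 4.72 CPM with vehicle and 1.03, 1.79 and 1.67 CPM with TNF-α in granulocytes, a fall of 1.78 ± 0.19 (adjusted p = 4.7e-10) without overlap. In promyelocytes its flasks overlapped, at 0.476 to 0.543 CPM with vehicle and 0.505 to 0.953 CPM with TNF-α, and the responses differed by -2.19 ± 0.39 (adjusted p = 0.00013). TAPT1 fell by 0.25 in granulocytes.

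CYP1B1-AS1 is opposite CYP1B1, a cytochrome P450 enzyme of oestrogen and xenobiotic metabolism. With vehicle it had 45.2, 46.6 and 43.7 CPM in granulocytes and with TNF-α 15.6, 14.4 and 13.6 CPM, a fall of 1.63 ± 0.07 on the log2 scale (adjusted p = 2.3e-21). Promyelocytes had 5.94, 7.99 and 7.18 CPM against 4.60, 5.02 and 4.83 CPM, a fall of 0.54 ± 0.14 (adjusted p = 0.011; 0.080 without vehicle flask 2). The flasks were apart in both cell types. CYP1B1 fell alongside, by 1.35 ± 0.05 and 0.46 ± 0.06, and both genes fell further in granulocytes, by -1.06 ± 0.14 for the antisense RNA (adjusted p = 1.8e-06) and by -0.85 ± 0.08 for CYP1B1.

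The members with the highest levels per length included 3 that fell and a pair that rose in granulocytes. PTPRN2-AS1, described above, averaged 95.3 TPM and OIP5-AS1, an abundant cytoplasmic lncRNA, 69.5 TPM. OIP5-AS1 had 346, 335 and 333 CPM with vehicle and 218, 220 and 230 CPM with TNF-α in granulocytes, a fall of 0.60 ± 0.05 (adjusted p = 3.0e-13), while in promyelocytes 328, 305 and 300 CPM stood against 298, 311 and 304 CPM, overlapping (-0.03 ± 0.06, adjusted p = 0.75). BSG-AS1, opposite the basigin gene and 62.9 TPM on average, went from 32.3, 31.6 and 32.9 to 16.9, 14.3 and 14.3 CPM in granulocytes and from 14.5, 14.7 and 13.1 to 9.58, 10.5 and 9.81 CPM in promyelocytes. It fell by 1.09 ± 0.07 (adjusted p = 3.8e-15) and by 0.51 ± 0.10 (adjusted p = 0.00096). BSG had 0.01 (adjusted p = 0.86) in granulocytes. With trends in GC content and length removed this became -0.16, a called fall (adjusted p = 0.0025). In promyelocytes BSG had -0.19 (adjusted p = 0.052). SLC9A3-AS1 (51.2 TPM) rose from 120, 121 and 120 to 165, 167 and 155 CPM in granulocytes, by 0.43 ± 0.05 (adjusted p = 1.6e-09), with the sodium-proton exchanger gene SLC9A3 at 0.167 to 1.13 CPM. BCAN-AS2 (48.8 TPM) had 20.3, 16.7 and 21.9 CPM against 28.1, 24.2 and 24.1 CPM, a rise of 0.37 ± 0.08 (adjusted p = 0.00031) that was lost when those trends were removed (0.11, adjusted p = 0.22). Neither had a promyelocyte call, at 0.03 and -0.23.

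Of 297 members tested in both, 9 rose in both and 11 fell in both, and across these members the log2 fold changes had a Pearson correlation of 0.56 and a Spearman correlation of 0.37, given as a description of 297 points that share their libraries. A call in granulocytes but not in promyelocytes was found for 115 members, 43 of which also passed the test of the difference, and 7 were called only in promyelocytes, 4 of them with a called difference. Over all genes tested, too, calls were more frequent in granulocytes, 49.2% against 14.8% in promyelocytes. Joint calls over all genes were not counted, so these numbers are not read as particular to the members. The difference of TNF-α responses, granulocytes minus promyelocytes, was called in 61 of 313 members (19.5%), 23 higher and 38 lower in granulocytes, against 24.0% of all 18124 genes tested, 14.1% higher and 9.88% lower. With trends in GC content and length removed these were 16 higher and 44 lower, and over all genes 2135 of 4484 calls were then higher, against 2561 of 4351. Over all genes, higher calls were also the fewer in DESeq2 (1943 of 4212), with its size factors (2128 of 4394) and without the filter (1991 of 4509).

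The smallest p-values of that test were those of TTN-AS1 (-2.21 ± 0.24, adjusted p = 6.8e-08), TRG-AS1, CYP1B1-AS1, OIP5-AS1 (-0.53 ± 0.07, adjusted p = 4.9e-06) and SLC16A1-AS1. TRG-AS1, in the T cell receptor γ locus, had 42.4, 43.8 and 44.6 CPM with vehicle and 44.8, 46.1 and 40.8 CPM with TNF-α in promyelocytes, which overlapped, and 9.51, 8.44 and 8.70 CPM against 17.2, 16.4 and 16.8 CPM in granulocytes, which did not. It rose in granulocytes by 0.92 ± 0.09 (adjusted p = 6.3e-11), with 0.01 in promyelocytes (adjusted p = 0.95) and a difference of 0.95 ± 0.10 (adjusted p = 7.8e-08). SLC16A1-AS1, across from the lactate transporter gene SLC16A1, had 17.3, 20.8 and 19.1 CPM against 16.3, 14.5 and 17.4 CPM in promyelocytes (-0.24, adjusted p = 0.093). In granulocytes it rose from 4.12, 5.54 and 5.50 to 8.63, 8.00 and 8.39 CPM, by 0.71 ± 0.13 (adjusted p = 1.1e-05), and the difference was 1.00 ± 0.15 (adjusted p = 2.1e-05). SLC16A1 had no call, with 0.08 and -0.06.

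OTUD6B-AS1 and USP3-AS1 were called in opposite directions in the cell types, and are named after their values were seen. OTUD6B-AS1, divergent from a deubiquitinase gene, rose from 31.9, 32.2 and 34.0 to 41.1, 42.0 and 38.7 CPM in promyelocytes (0.31 ± 0.07, adjusted p = 0.0026). In granulocytes it had 42.5, 41.9 and 40.2 CPM with vehicle and 39.8, 36.8 and 35.0 CPM with TNF-α (-0.16 ± 0.06, adjusted p = 0.031), a call lost in DESeq2 (adjusted p = 0.11), with all 12 libraries in 1 fit (adjusted p = 0.072) and without TNF-α flasks 2 or 3 or vehicle flasks 1 or 2 (adjusted p up to 0.18). With trends in GC content and length removed the granulocyte value was -0.09 (adjusted p = 0.22). USP3-AS1, across from the gene of a histone deubiquitinase, fell from 4.70, 4.36 and 3.95 to 2.93, 2.67 and 2.92 CPM in promyelocytes (by 0.61 ± 0.16, adjusted p = 0.014; up to 0.065 without TNF-α flask 2 or vehicle flask 1). In granulocytes it rose from 2.23, 2.64 and 2.83 to 4.16, 3.57 and 3.97 CPM (0.59 ± 0.17, adjusted p = 0.0048). Its difference of 1.24 ± 0.23 and that of OTUD6B-AS1, -0.43 ± 0.09, were both called (adjusted p = 0.00016 and 0.00071).

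**Figure D3:**
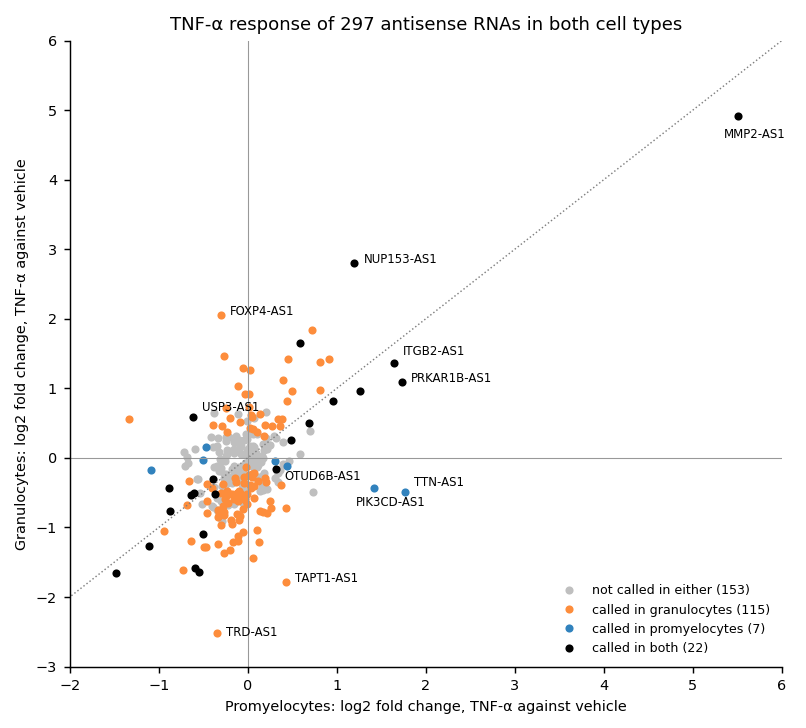
Log2 fold change of TNF-α against vehicle of each of 297 antisense RNAs in promyelocytes (x axis) and granulocytes (y axis), coloured by where the RNA was called, with the dotted line marking equal responses. MMP2-AS1 lies far out in both, TTN-AS1 is raised in promyelocytes and FOXP4-AS1 in granulocytes, and 115 RNAs called only in granulocytes spread along the vertical axis.

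The sense gene was compared with its antisense RNA in 253 pairs tested in promyelocytes and 259 in granulocytes. In promyelocytes, 5 pairs rose together and 2 fell together, and FRY-AS1 was the only member called against its sense gene, while 27 sense genes rose and 11 fell beside an antisense RNA without a call. In granulocytes, 27 pairs rose together, 27 fell together, 15 antisense RNAs fell where the sense gene rose and 4 rose where it fell. Beside an antisense RNA without a call, 44 sense genes rose there and 35 fell. Over all genes tested, 24.4% rose and 24.8% fell in granulocytes, and 8.15% rose and 6.65% fell in promyelocytes. Whether calls in both genes of a pair exceed what such shares give was not tested. Across pairs, the log2 fold changes had a Pearson correlation of 0.26 (Spearman 0.14, n = 253) in promyelocytes and 0.31 (Spearman 0.35, n = 259) in granulocytes, given as a description. With start sites within 1 kb it was 0.20 (Spearman 0.21, n = 103) in promyelocytes and 0.50 (Spearman 0.35, n = 104) in granulocytes, and with overlapping exons 0.33 (Spearman 0.16, n = 197) and 0.41 (Spearman 0.38, n = 198). All points of each correlation share the same 6 libraries. The antisense level relative to its sense gene had a median log2 change of -0.07 in promyelocytes and -0.19 in granulocytes.

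**Figure D4:**
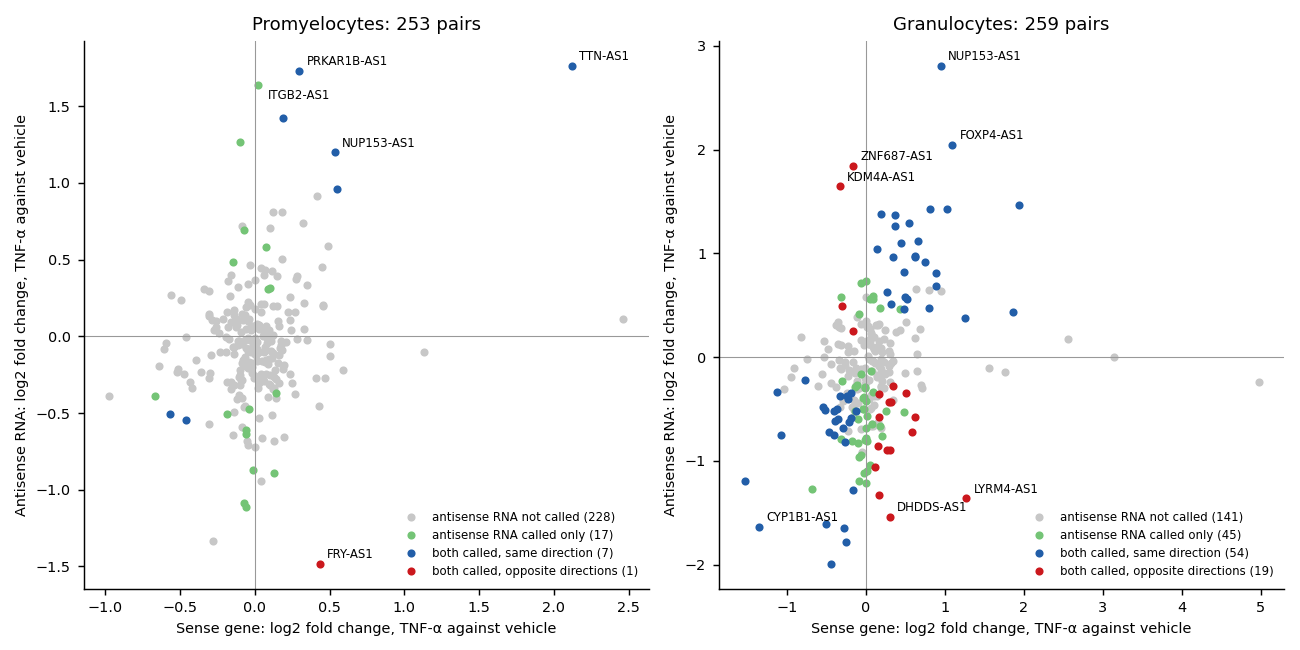
Log2 fold change of TNF-α against vehicle of the antisense RNA (y axis) against that of its sense gene (x axis) in 253 promyelocyte pairs (left) and 259 granulocyte pairs (right), coloured by which of the pair was called. Called pairs of the same direction number 7 and 54, and those of opposite direction number 1 and 19.

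Among pairs called in opposite directions, those furthest apart were, besides FRY-AS1, ZNF687-AS1 and KDM4A-AS1, the granulocyte pairs of LYRM4-AS1, DHDDS-AS1 and DDX11-AS1. LYRM4-AS1, which lies 59144 bases beyond the 3′ end of LYRM4, an iron-sulfur cluster assembly gene, had 1.23, 1.13 and 0.438 CPM with vehicle and 0.358, 0.357 and 0.361 CPM with TNF-α. It fell by 1.36 ± 0.42 (adjusted p = 0.0065), a call lost without vehicle flask 1 (adjusted p = 0.065), and LYRM4 rose by 1.27 ± 0.07 from 18.4, 18.2 and 17.2 to 41.3, 43.7 and 45.0 CPM. The TNF-α flasks of LYRM4-AS1 all lay below the filter's cutoff of 0.376 CPM, so it was tested through its vehicle flasks. DHDDS-AS1, in an intron of the dolichol synthesis gene DHDDS, had 2.23, 2.70 and 2.43 CPM against 0.626, 0.786 and 1.13 CPM. It fell by 1.54 ± 0.26 (adjusted p = 5.5e-06) and DHDDS rose by 0.30 ± 0.06. DDX11-AS1, which shares its start region with the DNA helicase gene DDX11, had 1.27, 0.801 and 0.877 CPM against 0.224, 0.429 and 0.496 CPM and fell by 1.33 ± 0.39 (adjusted p = 0.0045). DDX11 had 0.16 ± 0.06 (adjusted p = 0.032), a call lost in DESeq2 (adjusted p = 0.089), without the filter (adjusted p = 0.078) and without any 1 of 5 of the 6 libraries, all but vehicle flask 1 (adjusted p up to 0.16). With trends in GC content and length removed DDX11 had 0.04 (adjusted p = 0.59). In the granulocyte flasks of FRY-AS1, LYRM4-AS1, KDM4A-AS1, ZNF687-AS1, DDX11-AS1 and DHDDS-AS1 the ratio to the sense gene did not overlap between treatments. All but FRY-AS1 were named for opposite calls in these same flasks, so their separate ratios add no support. Of all 259 granulocyte pairs, 39 had a higher and 89 a lower ratio without overlap (0.1 CPM added to each gene).

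**Figure D5:**
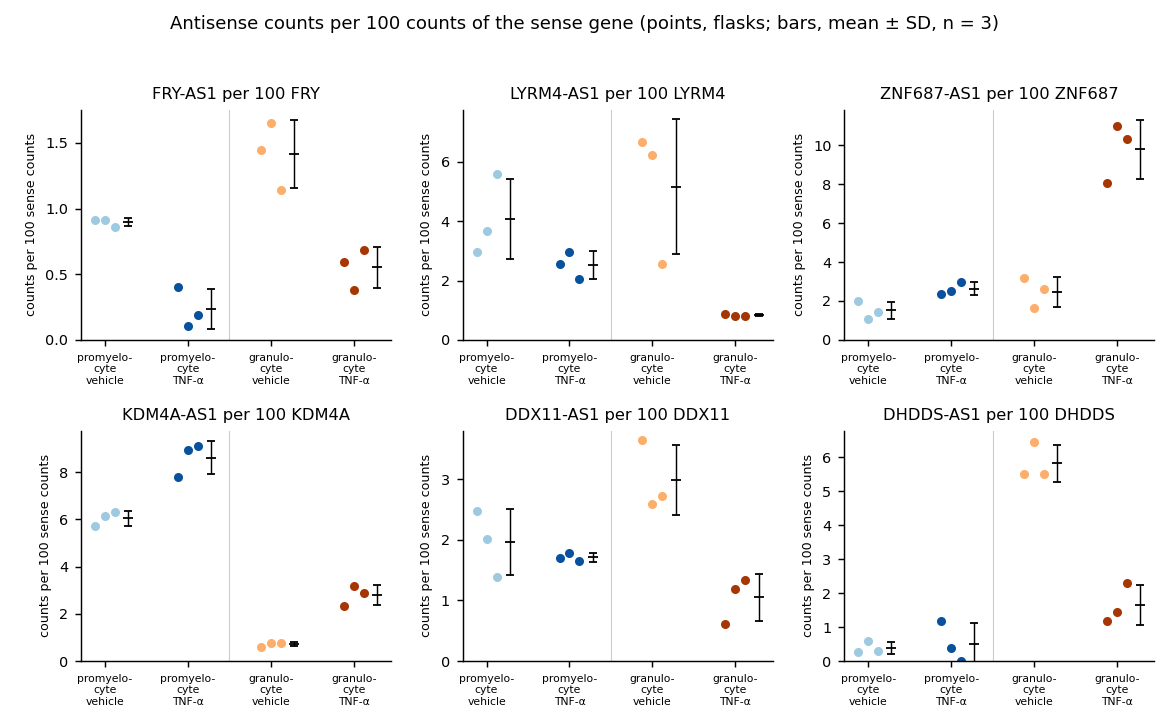
Counts of the antisense RNA per 100 counts of its sense gene (y axis, from 0) in every flask of the 4 groups for 6 pairs, with mean and SD (n = 3). In granulocytes the ratio is lower in every TNF-α flask for FRY-AS1, LYRM4-AS1, DDX11-AS1 and DHDDS-AS1 and higher in every TNF-α flask for ZNF687-AS1 and KDM4A-AS1.

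Of 80 members tested in granulocytes and overlapped by another gene on the same strand, 5 rose and 38 fell (median log2 fold change -0.35). Among the 232 others 42 rose and 60 fell (median -0.13), a difference that was not tested. The same split in promyelocytes gave 3 rises and 7 falls among 77 members (median -0.05). The 221 others there had 11 rises and 8 falls (median -0.06), where 8.15% of all genes tested rose and 6.65% fell. The values that follow are those of granulocytes. For 52 of the 80 members a same-strand gene was matched by name and tested, with a median log2 fold change of -0.29. Its correlation with that of the member was 0.76 (Pearson) and 0.44 (Spearman) over the same 6 libraries. Some matches were faulty, with DNAJC9-AS1 matched to itself and DUT-AS1 and ZNF436-AS1 to the same Y_RNA value (-0.25). LAMTOR5-AS1 and SLC16A4-AS1 entered as each other's match. The 52 are therefore not all separate pairs, and the median and correlations were not recomputed without these. ADAMTSL4-AS1, beside the anti-apoptotic gene MCL1, rose with it (0.97 and 0.67), and VASH1-AS1 fell with ANGEL1 (-0.50 and -0.42), whereas THUMPD3-AS1, which shares 378 exon bases with SRGAP3, rose by 0.50 where SRGAP3 fell by 2.33. Among the 49 tested members that shared no exon bases with the same-strand gene, 2 rose and 24 fell. With regard to the sense gene, 11 of 106 members starting within 1 kb of it rose and 36 fell, and of 200 starting farther away 34 rose and 60 fell, where 24.4% of all genes tested rose and 24.8% fell. The difference between these subsets was not tested.

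Members were also grouped by the role of the sense gene, from lists that do not hold every gene of a role. Beside the counts that follow stand the shares of all genes tested, 24.4% up and 24.8% down in granulocytes and 8.15% up and 6.65% down in promyelocytes, and no group was tested against them. Of 9 members at immune genes, ITGB2-AS1 rose (11.1%) and 6 fell (66.7%) in granulocytes, among them PSMB8-AS1 at an immunoproteasome gene (by 1.28 ± 0.10 on the log2 scale), MAP3K14-AS1 at the gene of the NF-κB-inducing kinase (by 0.72 ± 0.15, where MAP3K14 rose by 0.58), CARD8-AS1 at an inflammasome gene (by 0.61 ± 0.09) and CD27-AS1 at a TNF receptor family gene (by 0.50 ± 0.14; adjusted p = 0.060 without vehicle flask 2). In promyelocytes 1 of the 9 rose (11.1%) and 2 fell (22.2%), IRF1-AS1 and CD27-AS1 (by 0.60 ± 0.18; adjusted p up to 0.11 without flask 3 of either treatment). PRKCQ-AS1, also among the granulocyte falls, lost its call in DESeq2 (adjusted p = 0.10) and without TNF-α flask 2 or vehicle flask 1 (adjusted p up to 0.14). TRAF3IP2-AS1 and MIF-AS1 were not called in either cell type.

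Among members listed at genes of membrane transport and metabolism, 5 of 16 rose (31.2%) and 7 fell (43.8%) in granulocytes. The list also holds LPP-AS2, whose sense gene has another role. Of these calls, the fall of SLC25A5-AS1 was lost in DESeq2 (adjusted p = 0.15) and without any 1 of 5 of the 6 libraries. The rise of SLC39A13-AS1 was lost in DESeq2 (adjusted p = 0.11), with trends in GC content and length removed (adjusted p = 0.10) and without TNF-α flask 2 or vehicle flask 1. CBR3-AS1, at a carbonyl reductase gene, fell by 1.58 ± 0.07, DHRS4-AS1 by 0.80 ± 0.12, and ATP2B1-AS1, at a plasma membrane calcium pump gene, rose by 1.12 ± 0.33 with ATP2B1 (0.67). In promyelocytes none of 15 rose and 2 fell, CYP1B1-AS1 and CBR3-AS1, the latter by 0.59 ± 0.20 (adjusted p = 0.049; 0.085 in DESeq2, and up to 0.22 without any 1 library but vehicle flask 2). Of 20 listed members at transcription factor genes and HOX clusters, 4 rose (20%) and 5 fell (25%) in granulocytes, near the shares of 24.4% and 24.8% over all genes. The rises of ZBTB11-AS1 and ZMIZ1-AS1 and the falls of ZEB1-AS1 and ZNF561-AS1 were lost without some single libraries (adjusted p up to 0.16). The list leaves out ZNF687-AS1, which rose, and RORA-AS1 and ZFHX3-AS1, which fell by 1.23 ± 0.25 and 0.51 ± 0.11. NR2F2-AS1 fell by 1.20 ± 0.14 with the nuclear receptor gene NR2F2 (by 1.53), and GATA2-AS1 rose by 0.58 ± 0.17 where GATA2, a haematopoietic factor, had -0.32 without a call. In promyelocytes IRF1-AS1, which is in both the immune and this group, was the 1 call among 17.

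A list of chromatin and RNA processing genes, which also holds members at proteasome genes (PSMA3-AS1, PSMD6-AS2 and PSMG3-AS1) and ubiquitin pathway genes (TRIM52-AS1 and USP2-AS1), had 14 members tested in granulocytes, of which 3 rose (21.4%) and 5 fell (35.7%). Of the falls, 2 were at proteasome genes, PSMG3-AS1 by 0.89 ± 0.12 and PSMD6-AS2 by 0.34 ± 0.14 (adjusted p = 0.048), the latter call lost in DESeq2, with all 12 libraries in 1 fit, with trends in GC content and length removed, without the filter, with DESeq2 size factors and without any 1 library but TNF-α flask 3 or vehicle flask 2 (adjusted p up to 0.17). HDAC2-AS2, at a histone deacetylase gene, rose by 1.38 ± 0.18, THUMPD3-AS1, at a tRNA methyltransferase gene, by 0.50 ± 0.06, and DICER1-AS1, at the gene of the microRNA-processing nuclease, fell by 1.06 ± 0.32 (adjusted p = 0.0064; 0.087 without vehicle flask 3). In promyelocytes 2 of 15 rose (13.3%), KDM4A-AS1 and THUMPD3-AS1 (0.69 ± 0.07), and NOP14-AS1, at a ribosome biogenesis gene, fell by 0.47 ± 0.11. Of 7 members at cell cycle and DNA repair genes, none rose and 3 fell (42.9%) in granulocytes, KIF9-AS1 (by 1.12 ± 0.29), DDX11-AS1 and OIP5-AS1. TMPO-AS1, at the gene of a nuclear lamina protein, rose by 0.31 ± 0.09 in promyelocytes (adjusted p = 0.018), a call lost without TNF-α flasks 1 or 2 or vehicle flasks 1 or 2 (adjusted p up to 0.067). CDKN2B-AS1 had log2 fold changes of 0.11 and 0.00 (adjusted p = 0.66 and 0.99) while the cyclin-dependent kinase inhibitor gene CDKN2B rose by 2.47 in promyelocytes and by 3.14 in granulocytes.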

How the data were processed

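Total RNA depleted of ribosomal RNA was sequenced in pairs from 12 flasks of HL-60/S4 cells, 3 in each of 4 groups. According to the study's methods and the submitters' processing notes, the authors aligned reads with STAR 2.5.3a to hg38 with GENCODE v27, and counted primary alignments with both ends mapped per gene with featureCounts 1.5.2 in reverse-stranded mode (option 2). The deposited values are these raw counts, not normalized. Other options of the counting, such as the treatment of reads that fall on exons of several genes, are not given in the sources used here. Every column of the table was matched to a sample by its name.

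Genes were given symbols from the reference annotation (57532 of 58288 matched). Members and gene lists were chosen with earlier results of these data known. Each cell type was fitted alone with the edgeR 4.0.16 quasi-likelihood test (R 4.3.3), TMM scaling and the filterByExpr filter (minimum count 10, minimum total 15), and p-values were adjusted by Benjamini-Hochberg over all genes tested. The difference of responses was fitted over all 12 libraries. A gene was called at an adjusted p under 0.05, and standard errors were derived from the F statistic. TPM were computed from the counts and summed exon lengths of the file. In each cell type, the 6 called members with the largest rise and the 6 with the largest fall whose flasks did not overlap are named, as are the 5 with the smallest p for the difference, the 5 with the highest TPM and the 6 that moved furthest against their sense gene, besides members counted in lists of sense gene roles. Spread is between flasks of 1 line, so that p-values do not cover variation between donors. Same-numbered flasks did not deviate together (correlations of -0.20 to -0.01), so the numbers were not treated as pairs. With 3 against 3 flasks, no exact permutation test can give p under 0.10, and none is given. Scripts were tested on simulated counts. Alternatives were DESeq2 1.42.0, its size factors, no filter, a replicate block, all libraries in 1 fit, removal of library trends with GC content and length, and leaving out each library.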

Additional observations from a re-analysis of the deposited data

Results flagged for a closer look

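The TNF-α responses of 61 of 313 antisense RNAs differed between granulocytes and promyelocytes by the test of the difference (edgeR, adjusted p under 0.05), or 19.5%, where 24.0% of all 18124 genes tested were called. As log2 differences, granulocytes minus promyelocytes, the members with the smallest p-values had -2.21 (TTN-AS1), 0.95 (TRG-AS1), -1.06 (CYP1B1-AS1), -0.53 (OIP5-AS1) and 1.00 (SLC16A1-AS1). The differences of OTUD6B-AS1 (-0.43) and USP3-AS1 (1.24) came from calls in opposite directions. Cell type and experiment cannot be told apart in these differences. Groups of 3 flasks are too small for a test of single outlying flasks.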

How the results depend on the processing

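No alternative gave a member a call in the direction opposite to that reported. DESeq2 called 24 members in promyelocytes (13 up, 11 down), 118 in granulocytes (40 up, 78 down) and 64 for the difference of responses. Members falling in promyelocytes numbered 8 without TNF-α flask 2, and their sense genes that fell, 15 as reported, numbered 25 with GC and length trends removed, 32 with all 12 libraries in 1 fit and 8 without TNF-α flask 2; the causes were not tested. Leaving out 1 library at a time gave 20 to 28 members called in promyelocytes (12 to 16 up, 8 to 14 down), 129 to 138 in granulocytes (41 to 46 up, 84 to 92 down) and 48 to 66 for the difference (19 to 25 up, 26 to 41 down), and 40 to 55 sense genes called in promyelocytes (30 to 35 up, 8 to 20 down) and 139 to 156 in granulocytes (77 to 86 up, 59 to 70 down).

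Same-numbered flasks did not pair. With the replicate number as a block, 26 members were called in promyelocytes (12 up, 14 down), 139 in granulocytes (46 up, 93 down) and 48 for the difference (19 up, 29 down), and 46 and 142 sense genes. BSG, without a call in granulocytes (0.01), had -0.16 with GC and length trends removed, a called fall (adjusted p = 0.0025). Of the single genes named or listed, DESeq2 left 209 values on the same side of the threshold, with 13 calls lost and 1 gained, and the settings that leave out 1 library left 1382, with 88 lost and 12 gained. DESeq2 gave no adjusted p for 10 of these values. Members with few counts have the least precise values: the floor of 3 counts was 0.0953 to 0.135 CPM.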
